A study of Rattus norvegicus with 30 samples.

Results

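The cytosolic ribosome of rat liver was followed through the mRNAs of its proteins in 30 Wistar rats. The genes were taken by symbol: a probe set entered when it had exactly 1 gene symbol and that symbol was Rpl or Rps followed by a digit, Rplp0, Rplp1, Rplp2 or Rpsa. Kinases and binding proteins with similar symbols (Rps6k and Rps19bp) were left out. The rule gave 222 of the 29489 probe sets, which stand for 189 of the 18166 genes tested. Of the 189 genes, 55 encode the standard ribosomal proteins, 37 of the large (60S) and 18 of the small (40S) subunit, and are called canonical here. The other 134 are copies and paralogs scattered through the genome, of which RefSeq annotates 92 as protein coding and 42 as pseudogenes. Another 22 canonical genes, Rplp1, Rpl32 and Rps18 among them, had no probe set with a single symbol and so did not enter.

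Rats of wild-type genotype lost 90%, 70% or 30% of the liver in a partial hepatectomy (PH90, PH70 and PH30), underwent sham surgery, or stayed unoperated, with 6 rats per group. The liver was sampled 24 hours after the operation and snap frozen, and 1 Affymetrix Rat Gene 2.0 ST array was run per rat. The study allocated rats at random, and each array is a separate animal. Every number below is a log2 value relative to the median of its probe set over the 30 arrays, a difference between 2 group means of such values, or the matching fold change. Levels themselves were lost in this centring, so no gene's level can be set against another's, and the labelled tissue cannot be checked from the level of hepatocyte markers.

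Ribosomal proteins surround and stabilise the ribosomal RNA, and each is needed in about equal number for every new ribosome. In mammals their mRNAs carry a pyrimidine-rich tract at the 5′ end, the terminal oligopyrimidine (TOP) tract, through which growth signals acting over the kinase mTORC1 adjust their translation. In the liver remnant after partial hepatectomy, hepatocytes enlarge and enter the cell cycle, and ribosome production is a classic part of that growth response.

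After 90% resection nearly all canonical ribosomal protein genes had higher mRNA levels than after the sham operation. The rise was called for 47 of 55 genes and a fall for 0, against 19.9% of all 18166 genes called higher and 14.7% called lower (limma, Benjamini-Hochberg adjusted p under 0.05, as for every call here). All 55 differences were positive. The median difference of the 55 genes was 0.80 on the log2 scale, a fold change of 1.74, beside a median of -0.00224 over all genes. The 47 called genes rose between 1.24-fold and 3.04-fold, and 14 of them at least doubled.

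**Figure D1:**
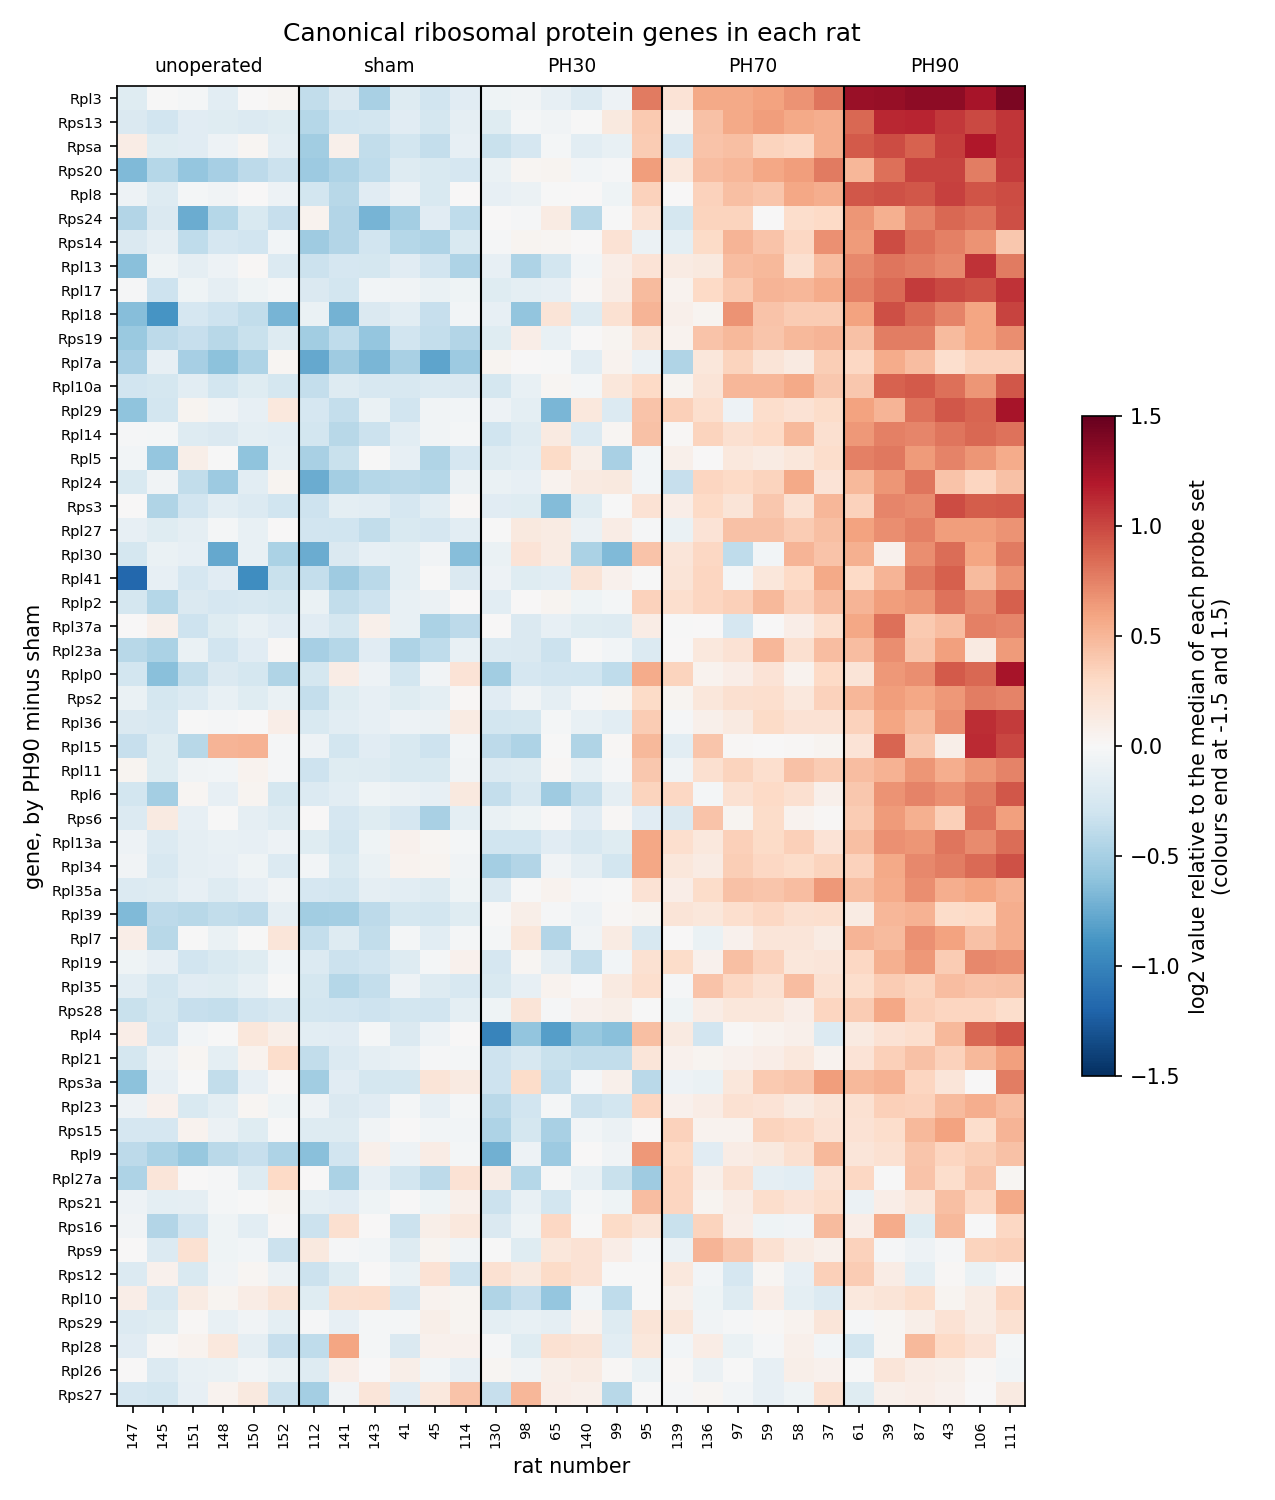
Each row is 1 of the 55 canonical ribosomal protein genes, ordered by the PH90 minus sham difference, and each column is 1 rat, with the groups from unoperated to PH90. Colour gives the log2 value relative to the median of the probe set and ends at -1.5 and 1.5. The PH90 block is red down to the last 8 genes, the PH70 block is paler, and rat 95 in PH30 stands out as a red column.

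Rpl3, a large-subunit protein close to the peptidyl transferase centre, had the highest rise. Its values had a lowest, median and highest of 1.23, 1.32 and 1.41 in PH90 rats, 0.21, 0.59 and 0.81 in PH70 rats, -0.20, -0.07 and 0.77 in PH30 rats and -0.48, -0.25 and -0.17 in sham rats. No PH90 rat came near any rat of another group, and PH70 and sham rats did not overlap. The difference from sham was 1.60 ± 0.111 (moderated SE, limma adjusted p = 1.9e-12, 3.04-fold) in PH90 and 0.86 ± 0.111 (adjusted p = 5.6e-06) in PH70. In PH30 it was 0.33 and not called (adjusted p = 0.075), with only rat 95 far above the others of its group.

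Rpsa, which encodes the small-subunit protein SA, also known as a precursor of the laminin receptor, had the third highest difference. Its lowest, median and highest values were 0.89, 1.01 and 1.20 in PH90 rats, against -0.52, -0.32 and 0.08 in sham rats. The groups did not overlap, and the difference was 1.28 ± 0.115 (limma adjusted p = 3.3e-10). PH70 rats spanned -0.25 to 0.54, and their difference from sham was 0.57 (adjusted p = 0.00061). The lowest PH70 value, that of rat 139, lay within the range of the sham rats.

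Among the other small-subunit genes, Rps13 rose by 1.30 ± 0.0837 in PH90 (limma adjusted p = 4.5e-13). Its values were 0.86, 1.06 and 1.14 in PH90 rats (lowest, median, highest), against -0.42, -0.27 and -0.14 in sham rats. Rps20 rose by 1.21, Rps24 by 1.12, Rps14 by 1.11 and Rps19 by 1.05. In humans, RPS19 and RPS24 are genes of Diamond-Blackfan anaemia, a failure of red cell production, and RPS14 is the gene tied to the anaemia of the 5q- syndrome. Rps6, the small-subunit protein phosphorylated by the S6 kinases downstream of mTORC1, rose by 0.78 ± 0.0907 (adjusted p = 4.3e-08). Its PH90 values of 0.35, 0.57 and 0.81 all lay above the sham values of -0.49, -0.21 and 0.01. Rps3, which lies at the mRNA entry of the small subunit, rose by 0.93 (adjusted p = 4.8e-08).

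On the large subunit, Rpl8 rose by 1.16 and Rpl13 by 1.10. Rpl5 and Rpl11, which travel with 5S ribosomal RNA and can bind the p53 inhibitor Mdm2, rose by 0.97 and 0.80. Rpl5 values were 0.55, 0.70 and 0.79 in PH90 rats (lowest, median, highest), against -0.48, -0.30 and -0.01 in sham rats. Rpl11 values were 0.47, 0.60 and 0.74 in PH90 rats, against -0.31, -0.21 and -0.05 in sham rats. For both genes every PH90 rat was above every sham rat. Of the stalk proteins, which recruit translation factors to the ribosome, Rplp0 rose by 0.82 ± 0.144 (limma adjusted p = 3.1e-05) and Rplp2 by 0.87 ± 0.074 (adjusted p = 1.1e-10). Rplp0 had the wider scatter: its values ran from 0.19 to 1.24 in PH90 rats and from -0.27 to 0.21 in sham rats, so that the groups overlapped at their edges. Rpl19, a large-subunit protein, rose by 0.71. Rpl13a, which like Rplp0 is often used as a reference gene in quantitative PCR, rose by 0.77, with 0.45, 0.70 and 0.84 in PH90 rats, against -0.27, -0.05 and 0.07 in sham rats.

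**Figure D2:**
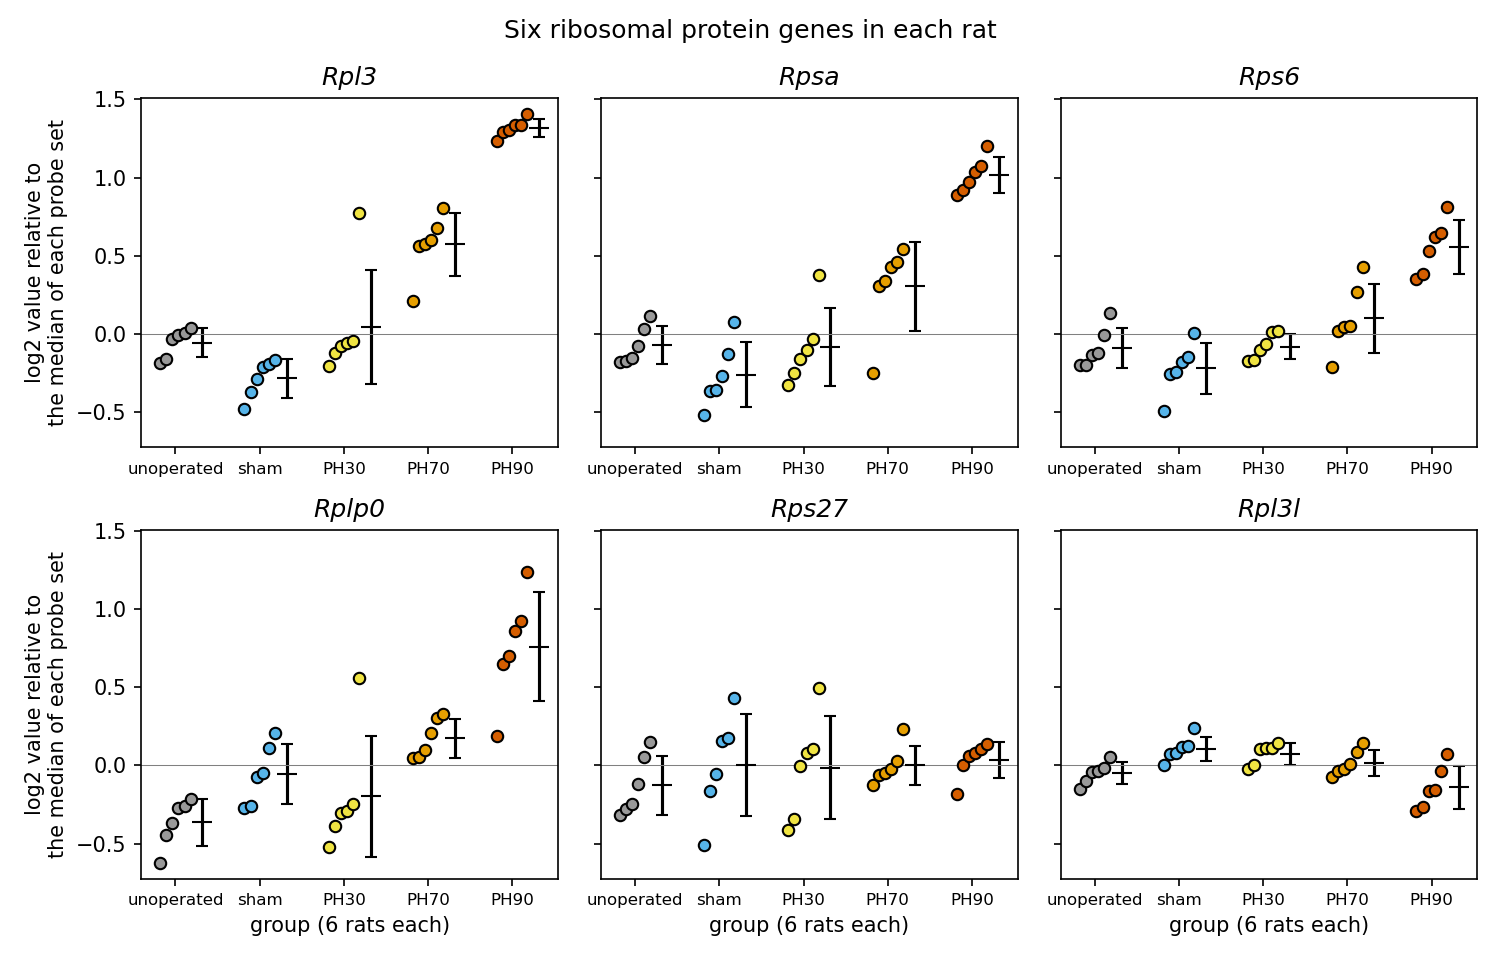
Points are single rats (6 per group) for Rpl3, Rpsa, Rps6, Rplp0, Rps27 and the paralog Rpl3l, on a log2 axis relative to the median of each probe set, and the cross beside each group is its mean with the SD as bar. The first 4 genes are highest in PH90, Rps27 shows no shift, and Rpl3l is lowest in PH90.

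The large-subunit genes were called in 34 of 37 cases (median difference 0.80) and the small-subunit genes in 13 of 18 (median 0.71). The difference between the subunits was not tested. Each subunit also had members at both ends of the range, with Rpl3 beside Rpl26 and Rps13 beside Rps27.

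The 8 canonical genes not called in PH90 were Rpl10, Rpl26, Rpl28, Rps9, Rps12, Rps16, Rps27 and Rps29, named after their values were seen. Their differences lay between 0.03 and 0.24. Rps27, a small-subunit protein with a zinc finger, had a lowest, median and highest value of -0.18, 0.07 and 0.14 in PH90 rats, against -0.51, 0.05 and 0.43 in sham rats. The PH90 rats lay inside the range of the sham rats, and the difference was 0.03 ± 0.131. Rpl26 had a tighter estimate, 0.08 ± 0.0549 (limma adjusted p = 0.27). How far these probe sets stood above background cannot be read from the deposited values. On its own, 1 of the 3 probe sets of Rps29 was past the threshold (0.195, limma adjusted p = 0.047). Some copies were called: Rps12l2 (0.696), Rps12l3 (0.527), Rps12l5 (0.258) and Rpl28l1 (0.735). Rps12-ps6, Rps12l4, Rps12l6 and Rpl28l3 were not, nor was any copy of Rpl10, Rpl26, Rps9, Rps16 or Rps27. Copies are other genes than their parents, and 34.6% of all genes were called in this comparison. Whether a missing call depends on the probe set was not tested.

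The DNA at the start sites shows the feature that names the TOP class, and how it is spread over strong and weak responders. Each line below gives 30 bases of the RefSeq promoter table (assembly GRCr8) in the direction of the gene, 15 before the annotated start of the transcript and 15 from that start on, with the longest run of C and T in capitals. The first 5 genes had the highest PH90 differences among canonical genes with an entry and the last 5 the lowest, so the choice rests on the measured response.
Rpl3: ccagcgcctgctcgaTCTCTatcggcggcg
Rps13: gccgtttcctacctcgTTCTCTCTTTgctt
Rpsa: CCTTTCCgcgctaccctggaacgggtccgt
Rps24: tgagcggTCCTCTTTTCCTCCTTTacagct
Rps14: cccttccgTCTCTCTCTTTCCggtggagga
Rps12: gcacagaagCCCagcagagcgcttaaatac
Rpl10: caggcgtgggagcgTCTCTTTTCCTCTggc
Rpl28: ccccgcccctagtgTCTTTCTTTCCgtctc
Rpl26: CTCgtgtcaacttacagaaccggaagtcgc
Rps27: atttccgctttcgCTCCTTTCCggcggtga

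The windows lie on chromosome 7 (113507976 to 113508005, minus strand) for Rpl3, 1 (180009646 to 180009675, minus) for Rps13, 8 (128728864 to 128728893, plus) for Rpsa, 16 (96502 to 96531, plus) for Rps24 and 18 (56498245 to 56498274, plus) for Rps14. Those of the weak responders lie on chromosome 1 (23500060 to 23500089, plus) for Rps12, X (157205835 to 157205864, plus) for Rpl10, 1 (78083518 to 78083547, minus) for Rpl28, 10 (54109677 to 54109706, plus) for Rpl26 and 2 (177964592 to 177964621, minus) for Rps27. Long runs of 9 to 17 pyrimidines were found in both sets, in Rps13, Rps24 and Rps14 and also in Rpl10, Rpl28 and Rps27.

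Of the 55 canonical genes 45 had an entry in the promoter table. A C at the annotated start followed by at least 4 further pyrimidines, read on the sense strand, was found in 16 of the 45 (35.6%), against 2.6% of all 33469 promoters and 2 of 75 coding copies (2.7%). The letters CTTTCC occurred within 30 bases of the start, on the sense strand, in 14 of the 45 (31.1%), against 2.6% of all promoters. This motif and the first can overlap, as in Rps14. On the opposite strand (GGAAAG) it was found in 1 (2.2%), against 2.8% of all promoters. An annotated start that is off by a few bases changes the first count, so a window without the letters is not evidence of a missing tract. The 16 genes with the start letters had a median PH90 difference of 0.72, with 13 called, and the 29 without them 0.81, with 26 called.

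Probe sets of 1 gene mostly moved together, but not always. The 6 probe sets of Rpl39 differed from sham by 0.689 to 0.747 in PH90 and the 4 of Rpl35a by 0.705 to 0.768. The 3 of Rpl13 ran from 0.532 to 1.43. For Rps28, 1 probe set gave 1.25 (limma adjusted p = 5e-11) and the other 0.0171 (adjusted p = 0.83), so its mean of 0.63 stands for neither.

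The 22 canonical genes without a probe set of their own were partly covered by probe sets that the annotation gives to several symbols, usually a parent gene and its copies. There were 31 such ribosomal probe sets, covering 12 of the 22 genes. In PH90 29 of them rose against sham and 0 fell, with a median of 0.864 and a range of 0.0767 to 1.32. The highest, shared by Rps23 and a pseudogene of it, differed by 1.32, and 1 shared by Rps18 and its copies by 1.27. In PH70 25 rose and in PH30 18. In the fit of genes, 19.9% of all genes rose in PH90, 10.5% in PH70 and 2.2% in PH30. The calls of the 31 come from a fit of each probe set on its own, for which no share over all probe sets was counted. Rpl38 and other genes had several of the 31, and some belong to genes that were also tested, such as Rps24. The counts are therefore of probe sets and not of genes.

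After 70% resection 34 of the 55 canonical genes rose against sham and 0 fell, beside 10.5% of all genes called higher and 8.15% called lower. The called rises lay between 1.20-fold and 1.82-fold, none reaching a doubling. The median difference of the 55 genes was 0.40, a fold change of 1.32, and that of all genes was -0.012. Rps20 and Rpl3 led, each with 0.86, followed by Rps19 with 0.82, Rpl7a with 0.76, Rps14 with 0.74 and Rps13 with 0.73. Rps20 values were 0.16, 0.54 and 0.78 in PH70 rats (lowest, median, highest), against -0.55, -0.32 and -0.19 in sham rats, with no overlap. Rplp2 rose by 0.54, Rpl11 by 0.46, Rps3 by 0.45, Rpl5 and Rpl19 by 0.41 each, Rpl13a by 0.35 and Rps6 by 0.32. Rplp0 missed the threshold at 0.23 (limma adjusted p = 0.32). Without PH30 rat 95 and PH70 rat 139, whose means over the canonical genes lay farthest from those of their groups, 41 canonical genes rose in PH70. Leaving out rat 139, the lowest of its group, raises the PH70 mean of the canonical genes by construction.

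After 30% resection the picture was mixed. Of the 55 canonical genes, 10 rose and 1 fell against sham, beside 2.2% and 3.34% of all genes. The called rises lay between 1.21-fold and 1.53-fold. The median of the 55 genes was 0.15 and that of all genes 0.0107. Rpl7a, a large-subunit protein, rose by 0.61 ± 0.109 (limma adjusted p = 0.003), Rpl24 by 0.44, Rps20 by 0.44, Rps19 by 0.44 and Rps14 by 0.43. Rpl7a values were -0.16, 0.00 and 0.06 in PH30 rats (lowest, median, highest), against -0.79, -0.62 and -0.48 in sham rats, so that even the PH30 group was clear of the sham group for this gene. Unoperated rats ran from -0.62 to 0.03 and overlapped the PH30 rats. The calls of Rpl7a, Rps20 and Rps19 held in all 21 other settings. That of Rpl24 was lost in 5 of 21, and that of Rps14 with unoperated rats as the control. Rps6, Rpsa, Rplp0, Rplp2, Rpl5 and Rpl11 were not called, with differences of 0.14, 0.18, -0.14, 0.19, 0.19 and 0.18, nor were Rps3 (0.0018), Rpl13a (-0.03) and Rpl19 (0.08).

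Rpl10, which joins the large subunit in a late step of its maturation, was the canonical gene that fell in PH30. Its values were -0.58 to 0.00 in PH30 rats, with a median of -0.36, and -0.25 to 0.25 in sham rats, with a median of 0.05. The groups overlapped, and the difference of -0.33 ± 0.0967 was just past the threshold (limma adjusted p = 0.044). It was past it for 1 of the gene's 2 probe sets (-0.368, adjusted p = 0.043) and not for the other (-0.286, adjusted p = 0.24). The call was lost in 10 of 21 other settings. The count of 11 called genes in PH30 was 7 without PH30 rat 99 and 7 without sham rat 141. Without rats 95 and 139 together it was 13, of which 11 rose and 2 fell.

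The mean of the 55 canonical genes in each rat shows how far the groups stood apart. It was 0.407 to 0.672 in PH90 rats (0.56 ± 0.0861, SD, n = 6), 0.0544 to 0.321 in PH70 rats (0.212 ± 0.0908), -0.2 to 0.207 in PH30 rats (-0.0613 ± 0.139), -0.301 to -0.0877 in sham rats (-0.193 ± 0.0722) and -0.237 to -0.117 in unoperated rats (-0.176 ± 0.0493). Every PH90 rat was above every other rat, and every PH70 rat above every sham and unoperated rat. In PH30, 5 rats lay between -0.2 and -0.0672, next to the sham rats, and rat 95 lay at 0.207, within the range of PH70. The lowest PH70 rat, 139, lay at 0.0544. In rat 95, 38 of the 55 genes were above their median over the 30 arrays, while the other PH30 rats had 6 to 23.

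**Figure D3:**
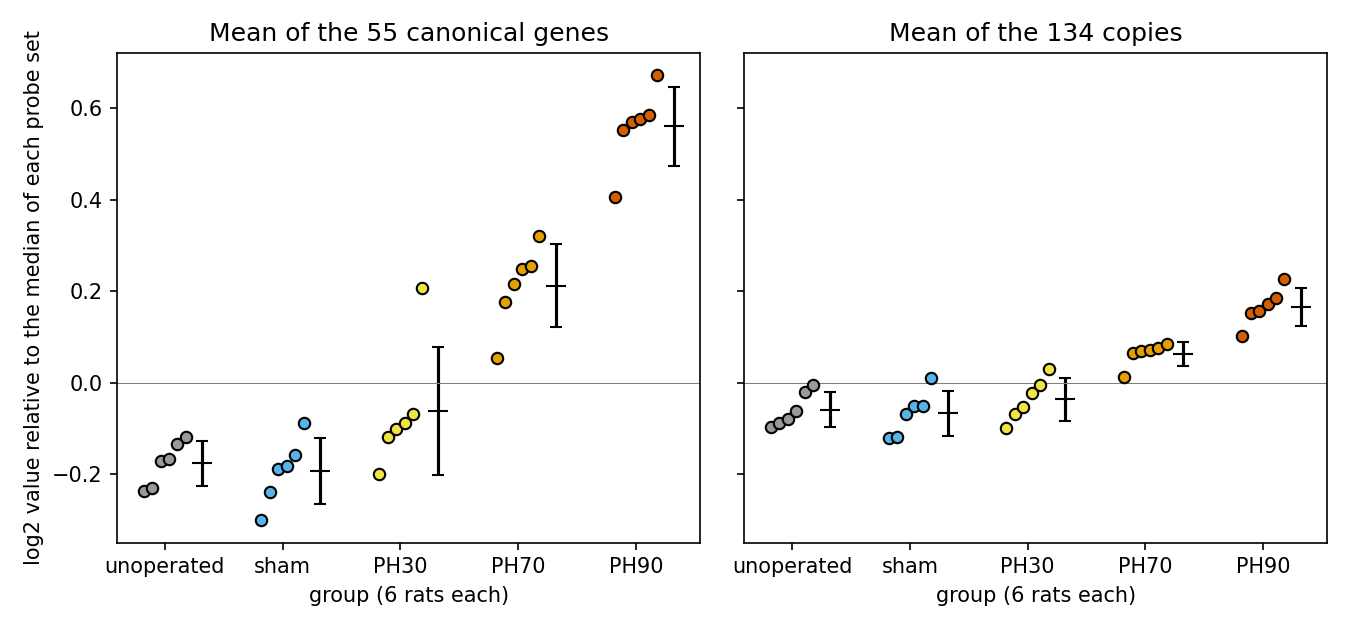
Points are single rats (6 per group), crosses are group means with the SD as bar, and the y axis is the mean log2 value relative to the median of each probe set. The left panel averages the 55 canonical genes, where the PH90 rats sit between 0.407 and 0.672, above all others. The right panel averages the 134 copies, whose PH90 rats sit between 0.102 and 0.227.

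The canonical genes differed among the 3 resections in 47 of 55 cases by limma's moderated F test, beside 32.4% of all genes. In 38 of 55 the group means stood in the order sham, PH30, PH70, PH90 from low to high, which held for 11% of all genes. The comparisons with sham share the 6 sham rats, so the resections were also set against each other.

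PH90 was higher than PH70 for 34 canonical genes and lower for 0, beside 14.1% and 10.4% of all genes. Rpl3 differed by 0.75 ± 0.111 (limma adjusted p = 5.7e-06), Rpsa by 0.71, Rpl29 by 0.62, Rps24 by 0.60, Rpl37a by 0.61, Rplp0 by 0.59 and Rps6 by 0.46. Rpl5 differed by 0.56, Rps3 by 0.48, Rpl13a by 0.42, Rpl11 and Rplp2 by 0.33 each and Rpl19 by 0.30. Rps28 was past the threshold with 0.24, while Rpl7a, high in PH30 already, was not (0.25, adjusted p = 0.096). The median difference of the 55 genes was 0.35. The count depended on the scaling of the arrays: after quantile normalization of the deposited values it was 7 and the median 0.158. The values of PH90 arrays scattered more widely around 0, with a standard deviation over all probe sets of 0.326 to 0.478, against 0.204 to 0.277 in PH70. Quantile normalization of centred values makes these spreads equal by construction.

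PH70 was higher than PH30 for 19 canonical genes and lower for 0, beside 1.76% and 0.512% of all genes, with a median difference of 0.30. Rpl3 differed by 0.53 ± 0.111 (limma adjusted p = 0.019), Rps3 by 0.45, Rps15 by 0.44, Rpl23a by 0.43, Rpl13a by 0.37, Rplp2 by 0.35 and Rpl19 by 0.34. Rps6, Rpl5, Rpl11, Rplp0 and Rpsa were not called, with differences of 0.18, 0.22, 0.28, 0.37 and 0.39. The number of calls was unstable, although the median moved little. It was 33 without rats 95 and 139, 31 without rat 95 alone and 32 with array weights, and 0 when only these 2 groups were fitted. Rat 95 had the highest canonical mean in PH30 and rat 139 the lowest in PH70. Leaving both out therefore widens this difference by construction, and the median was then 0.375. Leaving out a single other PH30 rat gave 7 (rat 130), 5 (rat 140), 6 (rat 65), 2 (rat 98) and 10 (rat 99). Leaving out a single PH70 rat gave 27 (rat 139), 8 (rat 136), 4 (rat 37), and 6 each for rats 58, 59 and 97. The median difference stayed between 0.268 and 0.364 in all 12 of these fits.

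PH90 was higher than PH30 for 49 canonical genes and lower for 0, beside 18.4% and 13.1% of all genes, with a median of 0.645, and without rats 95 and 139 the count was also 49. Rpl3 differed by 1.27, Rpsa by 1.10, Rpl4, a large-subunit protein, by 1.01, Rps13 by 0.996, Rplp0 by 0.96, Rpl8 by 0.95 and Rps3 by 0.93. Rpl13a, Rpl5, Rplp2, Rps6, Rpl19 and Rpl11 differed by 0.79, 0.78, 0.68, 0.64, 0.64 and 0.62. In 35 of the 55 genes every PH90 rat was above every PH30 rat, as for 7.85% of all genes. Against sham, every PH90 rat was above every sham rat in 43 of 55 genes (12.1% of all genes), every PH70 rat in 27 (4.36%) and every PH30 rat in 7 (1.63%). Every PH90 rat was above every PH70 rat in 21 genes (6.39%), every PH70 rat above every PH30 rat in 3 (0.314%), and every sham rat above every unoperated rat in 0 (0.936%).

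The sham operation by itself gave no called change. None of the 189 genes passed between sham and unoperated rats with limma, where 0.308% of all genes were called higher and 0.429% lower. At an unadjusted limma p under 0.05, 7 of the 189 genes were higher and 9 lower, among them 1 and 3 of the canonical genes. Over all 18166 genes, 903 were higher and 1104 lower at that threshold, so the 189 genes did not stand out. Other settings called 0 to 4 of the 189. The median difference of the canonical genes was -0.0271 and their range -0.274 (Rpl7a) to 0.308 (Rplp0). The unoperated rats carry the highest animal numbers of the study, so an effect of order and the lack of an operation cannot be told apart. With the unoperated rats in place of sham as the control, 49 canonical genes rose in PH90 (19.3% of all genes higher, 14.5% lower) and 36 in PH70 (9.31% and 9.17%). In PH30 9 rose and 2 fell, beside 3.48% and 6.37% of all genes.

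Within groups the canonical genes tended to vary together. After the group means were taken out, the 1485 pairs of canonical genes had a mean correlation of 0.238 over the 30 arrays, and 76.6% of pairs were positive. The mean correlation of canonical genes with all other genes was -0.0054. These residuals share arrays and their normalization, so this is a description only.

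Fewer of the 134 copies were called. In PH90 50 rose against sham (37.3%) and 4 fell (2.99%), with a median of 0.119, beside 19.9% and 14.7% of all genes. Of the 92 annotated as coding, 40 rose and 1 fell (median 0.157). Of the 42 pseudogenes, 10 rose (23.8%) and 3 fell (7.14%), with a median of 0.042, so that the share that rose was near that of all genes. In PH70 32 copies rose (23.9%) and 2 fell (1.49%), beside 10.5% and 8.15% of all genes. In PH30 5 rose (3.73%) and 0 fell, beside 2.2% and 3.34%, a share of rises near that of all genes. Rps19l3, Rpl8l1, Rpl37l1 and Rps23l1 were the highest in PH90, with 1.09, 1.06, 1.02 and 1.02. In PH70 Rps15al4 rose by 0.76 and Rps8l1 by 0.74, while Rpl19l1 (-0.21) and Rps19-ps18 (-0.34) fell. Against unoperated rats the PH70 difference of Rps19-ps18 was 0.0499. In PH30 Rps19l3 rose by 0.45, a call lost in 9 of 21 other settings, Rps15al4 by 0.44 and Rps12l2 by 0.42. Between PH70 and PH30 Rps8l1 differed by 0.56, Rpl23al4 by 0.54, Rpl37l4 by 0.52 and Rpl10al1 by 0.45. The last 3 of these calls were lost in 11, 10 and 12 of 20 other settings. Between PH90 and PH70 Rps26-ps12 differed by 0.65. Between PH90 and PH30 Rps20l4 differed by 1.06 and Rps10-ps3 by -0.21.

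**Figure D4:**
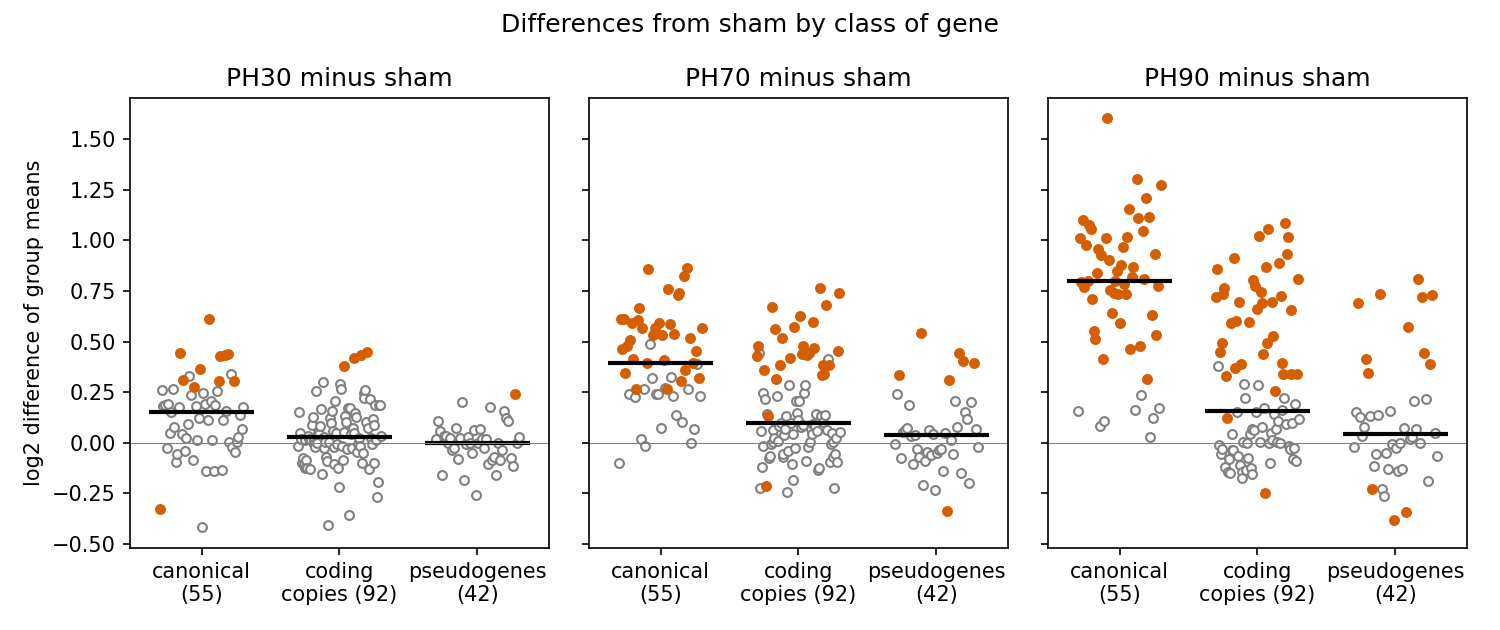
Each point is 1 gene, the y axis is its log2 difference from sham, and the panels are PH30, PH70 and PH90. Filled points were called, open points were not, and bars are medians. The canonical genes have medians of 0.15, 0.40 and 0.80, the coding copies 0.027, 0.0952 and 0.157, and the pseudogenes 0.000939, 0.0359 and 0.042.

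Many copies differ from the parent mRNA by few bases, so that a probe can bind either. For 52 coding copies the parent was tested too, and the correlation with it over the 30 arrays had a median of 0.18 and reached above 0.8 in 8. Among 27 pseudogenes the median was 0.125 and 2 were above 0.8. The PH90 difference was below that of the parent in 45 of the 52 and in 26 of the 27. Rpl8l1 had a correlation of 0.949 with Rpl8, with 1.06 for the copy and 1.16 for the parent in PH90. Rpl23a-ps6, which fell by 0.23, had a correlation of -0.547 with Rpl23a, which rose by 0.84. How much of the signal of such a copy comes from the parent mRNA was not tested.

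Some paralogs encode a protein of their own. Rpl3l, the paralog of Rpl3 found mainly in heart and skeletal muscle, fell in PH90. Its values were -0.29, -0.16 and 0.07 in PH90 rats (lowest, median, highest), against 0.00, 0.10 and 0.24 in sham rats. The ranges overlapped a little, and the difference was -0.25 ± 0.0565 (limma adjusted p = 0.00078), but against unoperated rats it was -0.0925 and not called. Rpl22l1, the paralog of Rpl22, rose by 0.33 (adjusted p = 4e-04), with 0.08, 0.27 and 0.37 in PH90 rats, against -0.19, -0.10 and 0.05 in sham rats. Rpl7l1, a paralog of Rpl7 linked to ribosome assembly, rose by 0.50 (adjusted p = 0.016), and its values scattered from 0.15 to 0.99 in PH90 rats and from -0.22 to 0.09 in sham rats. The other members that fell in PH90 were the pseudogenes Rpl7-ps3 (-0.38), Rps19-ps18 (-0.34) and Rpl23a-ps6 (-0.23). Rps19-ps18 differed from unoperated rats by 0.0491, so that its fall is seen against sham rats alone. The call of Rpl23a-ps6 was lost in 12 of 21 other settings, and that of Rpl7-ps3 against unoperated rats and without PH90 rat 87. The call of Rpl7l1 was lost after quantile normalization and without PH90 rat 106.

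Fau and Rack1 encode proteins of the cytosolic ribosome but have symbols outside the rule, and were read apart. Fau is known as the source of S30 of the small subunit, made as a fusion with a ubiquitin-like protein, and Rack1 as a scaffold on the small subunit. Fau rose 4.23-fold in PH90 (2.08 ± 0.14, limma adjusted p = 1.9e-12), by 1.01 in PH70, and was not called in PH30 (0.351). Rack1 rose by 1.40, 0.889 and 0.457 in PH90, PH70 and PH30.

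The neighbouring classes were counted in the same comparisons with sham, in which 19.9% of all genes rose and 14.7% fell in PH90, 10.5% and 8.15% in PH70, and 2.2% and 3.34% in PH30. Of 18 mRNAs outside the rule known for a TOP tract, which include elongation factors, initiation factor subunits and again Fau and Rack1, 16 rose in PH90 and 0 fell, with a median of 0.997. In PH70 13 rose and 1 fell, and in PH30 4 rose and 1 fell. Fau, Hnrnpa1 (1.61, an RNA-binding protein) and Vim (1.46, the intermediate filament vimentin) had the highest differences, and Eef1a1, the main elongation factor, rose by 0.327. Of 24 ribosome biogenesis genes 22 rose in PH90, 9 in PH70 and 1 in PH30, the last near the share of all genes, and 0 fell in any of the 3. Nhp2 and Nop58, proteins of the small nucleolar particles that modify ribosomal RNA, rose by 1.75 and 1.62. Of 14 chaperones and importers that handle ribosomal proteins before assembly, 13 rose in PH90, 10 in PH70 and 0 in PH30. Nap1l1, a histone chaperone, rose by 1.42, Rpf2, which brings the 5S particle to the large subunit, by 1.40, and Ipo4, a nuclear importer, by 1.10.

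Of 13 genes of mTORC1 and its translation arm, 4 rose and 1 fell in PH90, with a median of 0.148. The number called was near the 34.6% of all genes called in either direction. Deptor, an mTOR inhibitor, fell by 1.34 ± 0.13 in PH90 (limma adjusted p = 1.7e-09), by 0.814 in PH70 and by 0.444 in PH30. Eif4ebp1, a repressor of cap-dependent translation that mTORC1 inactivates, rose by 1.15 in PH90. Akt1s1, an inhibitory subunit of mTORC1, rose by 0.553. Activity of the kinase was not measured on these arrays. Of 72 mitochondrial ribosomal protein genes, which belong to a separate ribosome, 47 rose and 1 fell in PH90 with a median of 0.32, 29 rose in PH70, and 7 rose and 2 fell in PH30.

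Whole liver was measured, so fewer cells of a type and less RNA per cell cannot be told apart. Marker lists of other cells were counted in PH90 against sham, where 19.9% of all genes rose and 14.7% fell. Of 10 macrophage markers 5 fell and 1 rose. Their mean per rat was -0.656 to -0.0204 in PH90 rats, -0.0393 to 0.25 in sham rats and -0.337 to 0.0533 in unoperated rats. Of 8 neutrophil markers 4 rose. Their mean was 0.164 to 0.442 in PH90 rats, -0.38 to -0.16 in sham rats and -0.861 to -0.713 in unoperated rats. Lcn2, with a difference of 2.73, weighed most on that mean, and the next highest was S100a8 with 0.557. Mmp8 (0.348), Csf3r (0.185), Mpo (0.031) and Elane (-0.132) were not called. Of 5 red cell markers 3 fell. Their mean was -0.269 to 0.091 in PH90 rats, 0.196 to 0.54 in sham rats and -0.177 to 0.376 in unoperated rats. Of 11 markers of T, B and NK cells 3 fell. Their mean was -0.131 to -0.0622 in PH90 rats, 0.00353 to 0.113 in sham rats and -0.0676 to 0.0566 in unoperated rats. The ranges of unoperated and PH90 rats overlapped for macrophages and red cells, and slightly for T, B and NK cells. Among stellate cell markers 2 rose and 3 fell of 6, among endothelial markers 1 fell of 4, and among bile duct markers 1 rose and 1 fell of 7. The endothelial fall was that of Clec4g (-1.45). The largest stellate fall was that of Lrat (-1.88) and the largest stellate rise that of Des (1.04). Of 5 hepatocyte markers 1 rose and 1 fell. With lists this short, counts of 1 gene in a direction are near the share of all genes. Since levels are lost, no marker can be called absent. The part of these cells in the ribosomal protein result was not tested.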

How the data were processed

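The authors deposited log2 values for 29489 probe sets on 30 arrays in 1 table. Per the submitters' processing notes the values come from RMA (robust multi-array average, which corrects background, equalises array distributions and summarises probes) in Affymetrix Expression Console, with versions not given in the sources used here. The table states neither scale nor centring. Log2 is taken from RMA, and each probe set's median over the arrays is 0 within 5e-07. Array medians lie between -0.0088 and 0.022. Levels are lost, so no filter on low values was possible, and the 6 arrays per group limit precision.

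Probe sets were named from the platform annotation: 18511 had 1 symbol, 575 several and 10403 none. Probe sets of a gene were averaged, which gave 18166 genes. Tests used R 4.3.3 and limma 3.58.1: 1 lmFit over the 30 arrays with a mean for each group, then eBayes (two-sided; 25 residual and 3.71 prior degrees of freedom), with Benjamini-Hochberg adjustment over all genes, and called at an adjusted p below 0.05. A fold or log2 difference is the first group minus the second, and ± is the moderated SE unless SD is named. The steps were tested on simulated data. RefSeq's promoter table (GRCr8) gave the sequences, and Python 3.11.15 the counts of motifs.

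The ribosomal genes, the other lists and the markers were chosen with earlier results of these data known. Genes named are the 8 called members with the largest rise and fall in each comparison among resected and sham rats, and Rps6, Rpl5, Rpl11, Rplp0, Rplp2, Rpsa, Rps3, Rpl13a and Rpl19 in each of them, plus up to 3 members of each other list. The rule also named every paralog or copy, and most of the 134 are given as counts. Rps27, Rps28 and the other genes named for not being called were chosen after their values were seen. Alternatives were each probe set alone, a filter on SD, array centring, quantile normalization, array weights, a robust prior, fits of 2 groups, unoperated rats as the control, and leaving out rats.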

Additional observations from a re-analysis of the deposited data

Results flagged for a closer look

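Single rats stood apart from the other 5 of their group in 19 of 115 checks by Dixon's criterion. The checks covered the means of the canonical genes and of the copies, and a list of named genes. Some of these genes were named for the size of their difference or after their values were seen, so the list was not preset. Chance gives about 1 in 20, and the genes share arrays, so the checks are not independent. PH30 rat 95 was the highest of its group for the mean of the canonical genes (0.21, next -0.07), and for Rpl3 (0.77), Rps20 (0.63), Rplp0 (0.56), Rpl11 (0.41), Rpl13a (0.59) and Rpl7l1 (0.22). PH70 rat 139 was the lowest of its group for Rps13 (0.05), Rpsa (-0.25), Rpl7a (-0.45) and Rps19 (0.05). PH70 rat 136 was the lowest for the mean of the copies (0.01). In PH90, rat 39 was the highest for Rps28 (0.58) and rat 106 for Rpl13 (1.09). Sham rat 114 was the highest for Rps28 (-0.14). Among unoperated rats, 145 was the lowest for Rps13 (-0.29), Rplp2 (-0.42) and Rpl10 (-0.24), and 147 for Rpl13 (-0.63).

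The 31 probe sets that carry several ribosomal symbols do not enter the comparisons of single genes, and their median difference between PH90 and sham was 0.86, with a range of 0.0767 to 1.32.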

How the results depend on the processing

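The count of canonical genes called in PH90 against sham (47) was 44 to 49 and that in PH70 against sham (34) 31 to 42 under all alternatives over genes. With each probe set on its own (85 canonical probe sets), 25 were called in PH30 against sham and 74 in PH90 against sham. PH90 against PH30 gave 75, and PH30 against sham gave 30 for all 222 ribosomal probe sets. Genes with several probe sets count more than once there, and the share called over all probe sets was not counted. PH70 against PH30 was least stable: 32 canonical calls (55 of all 189) with array weights, 0 (1) with only the 2 groups, 33 (59) without rats 95 and 139, and 2 to 31 (3 to 55) with 1 rat left out. Rats 95 and 139 were picked by their canonical means, so leaving them out widens this difference by construction. PH30 against sham gave 7 to 13 with 1 rat left out. Quantile normalization left 7 canonical and 10 ribosomal calls in PH90 against PH70, and gave canonical medians of 0.611 (PH90 against sham), 0.477 (PH90 against PH30) and 0.158 (PH90 against PH70), and medians of all 189 genes of 0.251, 0.239 and 0.061 in the same order. It equalises spreads by construction. Between sham and unoperated rats it called 1 of 189, array weights 3, the SD filter 1, the fit of 2 groups 4, the fit without rats 95 and 139 3 (1 canonical), and leaving out 1 rat 0 to 1. The SD filter, which drops genes of low spread, gave medians of all ribosomal genes of 0.268 (PH70 against sham), 0.541 (PH90 against sham), 0.224 (PH70 against PH30), 0.461 (PH90 against PH30) and 0.215 (PH90 against PH70). Single probe sets gave 0.223 (PH70 against sham), 0.415 (PH90 against sham) and 0.364 (PH90 against PH30), and the unoperated control 0.26 (PH90). The sign turned for small differences, and for the called differences of Rps19-ps18 in PH70 and PH90 (-0.34 each). Against unoperated rats these were Rpl13a (0.0213), Rplp0 (0.166), Rpsa (-0.0103) and Rpl3l (0.122) in PH30, Rpl3l in PH70 (0.0656), and Rps19-ps18 in PH70 (0.0499) and PH90 (0.0491). Rps3 in PH30 turned to -0.0225 with array weights, -0.00352 with array centring and -0.0748 without rats 95 and 139. With 1 rat left out, Rps3 in PH30 ran from -0.0748 to 0.0995, Rpl13a in PH30 from -0.162 to 0.0152 and Rpl7l1 in PH70 from -0.142 to 0.0725. The causes were not tested. No paired analysis was possible because the animal numbers are unique and link no rats. Signal over background is unknown and limits what the deposited values can show for faint probe sets.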
